A study of Homo sapiens with 4 samples.

Results

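Heterogeneous nuclear ribonucleoproteins (hnRNPs) and serine/arginine-rich splicing factors (SR proteins, gene symbols SRSF) were examined in the human prostate cancer cell line PC3 after knockdown of METTL3, the methyltransferase that places N6-methyladenosine (m6A) on messenger RNA. The members are all protein-coding rows of the deposited gene count table whose symbol begins with HNRNP, or with SRSF and a digit. This gave 39 of the 60544 genes in the table, 27 of them hnRNP and 12 SRSF. The design compares 2 libraries labelled shNC, the control, with 2 labelled sh812, which was read as the METTL3 knockdown because it is the only other label. All 4 libraries are poly(A) RNA from the same line in the same medium. The labels do not say whether sh812 is 1 hairpin, whether the cells were a pool or 1 clone, or whether replicates were separate cultures, so p-values measure only the spread between these libraries.

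hnRNPs coat nascent transcripts in the nucleus and act in splicing, export, stability and translation. SR proteins bind exonic enhancers through RNA recognition motifs and recruit the splicing machinery through a domain rich in arginine and serine. The groups often act against each other at the same exon, and many SR genes limit their own messenger RNA by splicing in an exon that sends the transcript to nonsense-mediated decay (NMD). Several members are linked to m6A: HNRNPA2B1 has been described as a nuclear reader, HNRNPC binds sites that m6A makes accessible, and SRSF3 and SRSF10 bind the nuclear reader YTHDC1. The table counts reads per gene, so it shows the amount of each messenger RNA and not its splicing.

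The libraries held 31450648 to 37041330 counts. Of all counts, the members took 1.11% (replicate 1) and 1.07% (replicate 2) in shNC, and 1.19% and 1.14% in sh812. METTL3 had 44.3 and 43.6 CPM (counts scaled to library size) in the shNC libraries and 7.66 and 8.75 CPM in the sh812 libraries, and fell by 2.42 on the log2 scale (SE 0.11, edgeR adjusted p = 5.54e-14). Epithelial keratin KRT8 lay between 227 and 251 CPM and KRT19 between 384 and 444 CPM of all counts, and KLK3 and KLK2 had 0 counts in all 4 libraries. PTPRC, CD3E, CD14, CDH5, PDGFRB, DCN, CHGA, SYP and INSM1, markers of other cells, lay at or below 1.21 CPM in every library, while endothelial PECAM1 lay between 23.8 and 37.99 CPM, higher in both sh812 libraries, and fibroblast COL1A1 between 28.8 and 39.6 CPM. Their part in the results was not tested. In bulk RNA, fewer cells of a kind and less RNA per cell cannot be told apart. CPM values below are counts scaled to library sizes adjusted by the trimmed mean of M-values (TMM). Of the 39 members, 34 passed the low-count filter. The 5 that did not were HNRNPCL3 and the readthrough gene HNRNPUL2-BSCL2, both with 0 counts in every library, SRSF12 with 2 counts in sh812 replicate 2 and 0 elsewhere, HNRNPCL2 with 4 and 1 counts in shNC and 0 in sh812, and HNRNPCL4 with 6 and 1 counts in shNC and 0 and 2 in sh812.

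Promoter sequence is shown for members that were called higher in sh812 (below). RefSeq's promoter table for GRCh38.p14 held 35 of the 39 genes, some with several starts. The following stretches are the parts of the 250 bases before the RefSeq start that lie outside every protein-coding exon of GENCODE 29, for the called members with at least 200 such bases. Capitals mark TATAAA or CCGGAAG on either strand (CTTCCGG is CCGGAAG on the opposite strand), and sequences run 5′ to 3′ on the gene's strand.
SRSF3 (chr6:36594112-36594352, plus strand): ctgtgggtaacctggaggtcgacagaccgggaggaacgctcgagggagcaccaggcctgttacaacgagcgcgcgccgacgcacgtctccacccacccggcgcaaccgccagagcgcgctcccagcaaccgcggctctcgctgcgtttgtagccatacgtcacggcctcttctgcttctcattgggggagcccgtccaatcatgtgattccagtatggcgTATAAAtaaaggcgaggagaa
HNRNPU (chr1:244864561-244864793, minus strand): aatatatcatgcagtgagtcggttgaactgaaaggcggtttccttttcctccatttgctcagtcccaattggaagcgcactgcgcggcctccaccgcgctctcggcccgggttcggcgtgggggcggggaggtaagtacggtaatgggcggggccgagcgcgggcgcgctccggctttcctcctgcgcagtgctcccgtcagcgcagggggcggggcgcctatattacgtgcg
HNRNPF (chr10:43408883-43409089, minus strand): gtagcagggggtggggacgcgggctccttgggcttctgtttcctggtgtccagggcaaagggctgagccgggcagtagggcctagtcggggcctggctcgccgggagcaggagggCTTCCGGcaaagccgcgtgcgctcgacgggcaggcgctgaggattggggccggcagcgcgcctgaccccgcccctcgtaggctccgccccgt

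The called members SRSF7 and SRSF9 share their start region with a gene on the opposite strand, GEMIN6 and DYNLL1, and the bases between the annotated exons of each pair are given whole because the fold changes of both partners are compared below.
SRSF7 and GEMIN6 (chr2:38751495-38751533, strand of SRSF7): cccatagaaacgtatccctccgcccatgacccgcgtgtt
SRSF9 and DYNLL1 (chr12:120469794-120469849, strand of SRSF9): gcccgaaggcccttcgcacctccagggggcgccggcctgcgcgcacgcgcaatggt

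Among the 49 RefSeq windows of the members, TATAAA was found on either strand in 6 (12.2%), against 10.7% of the 35116 windows of all genes, and CCGGAAG in 5 (10.2%), against 8.52%. TATAAA beginning 25 to 35 bases before the start, a span chosen after the matches were seen, was found for SRSF3, HNRNPAB and 1 start of SRSF7, which is 6.12% of the members' windows and 2.64% of all windows. The median GC content of the windows was 64.8% for the members and 58.0% for all genes. The windows of all genes were not limited to protein-coding or expressed genes. Some members have several windows, and those of SRSF7 and of SRSF8 overlap. A match describes letters and not a bound factor.

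The comparison of sh812 with shNC asked whether the messenger RNAs of these splicing regulators differ in amount after METTL3 knockdown. Of the 34 members tested, 9 rose and 0 fell in edgeR (quasi-likelihood F test, Benjamini-Hochberg adjusted over 16802 genes, threshold 0.05). They were HNRNPA3, HNRNPA2B1, HNRNPF, HNRNPD, HNRNPU, HNRNPM, SRSF7, SRSF9 and SRSF3, and their fitted folds ran from 1.14 to 1.31. Over all genes tested, 5.43% were called higher and 5.42% lower, or 10.8% in all. At an unadjusted p under 0.05, 15 members were higher and 1 was lower, against 11.9% higher and 12.9% lower of all genes tested. DESeq2 and limma-voom also called 0 lower. The calls comprised 6 of 23 hnRNP genes and 3 of 11 SRSF genes. The median log2 fold change was 0.095 over the 34 members, 0.072 for hnRNP and 0.16 for SRSF genes, and -0.0056 over all genes tested.

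**Figure D1:**
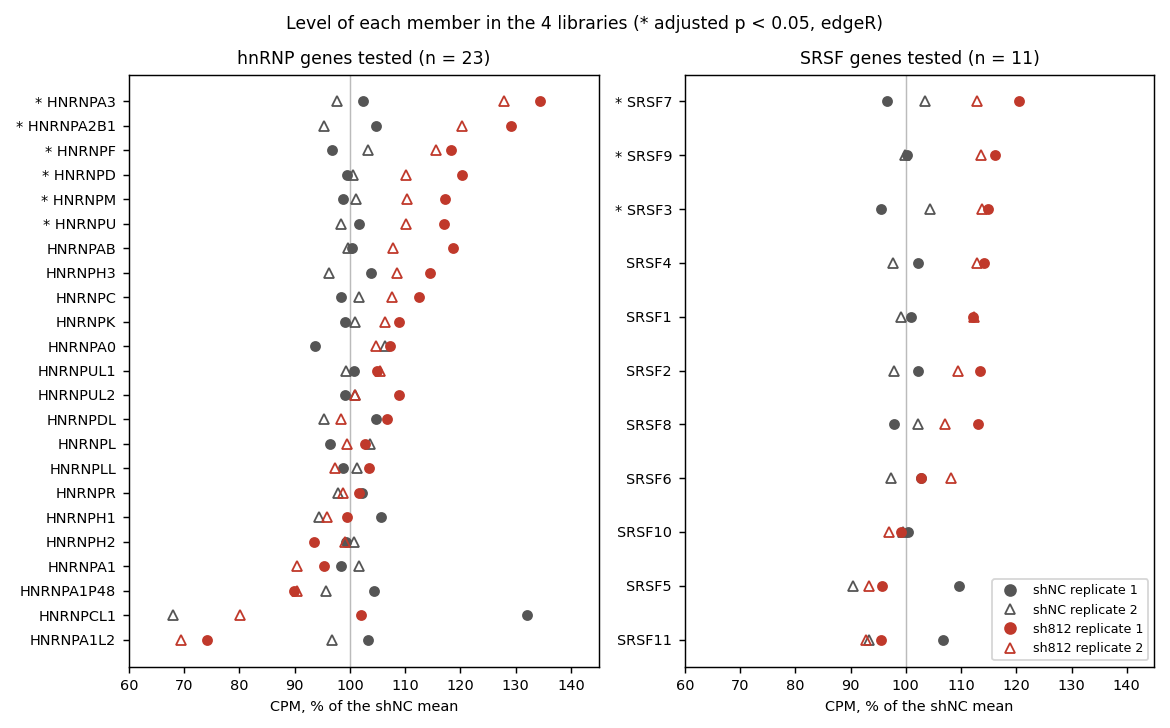
CPM of each tested member in the 4 libraries (x axis, percent of the mean of the shNC libraries), hnRNP genes on the left and SRSF genes on the right, ordered by fitted change. Grey marks are shNC and red marks sh812, circles replicate 1 and triangles replicate 2; the 9 starred genes have both red marks to the right of both grey marks.

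Most members are abundant, and abundant genes were called more often. The 31 members with a mean of at least 40 CPM held all 9 calls, and 11.9% of the 5379 genes at that level were called higher and 8.4% lower. At an unadjusted p under 0.05 the shares at that level were 22.6% and 16.3%, and 15 of the 31 members were higher and 0 lower. The median log2 fold change at that level was 0.022 over all genes and 0.14 over the members. The level was set after the values were seen. The 3 tested members below it were HNRNPA1L2, HNRNPA1P48 and HNRNPCL1. Both sh812 libraries lay above both shNC libraries in 20 members and below them in 5, with overlap in 9. The corresponding shares of all genes tested were 26.2% and 27.4%. Of the 5379 genes with a mean of at least 40 CPM, 2049 lay above and 1495 below, and of the 31 members at that level 20 and 3 did. Across the 34 members the Spearman correlation of the log2 fold change with the mean CPM was 0.51, as a description over genes measured in the same libraries.

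**Figure D2:**
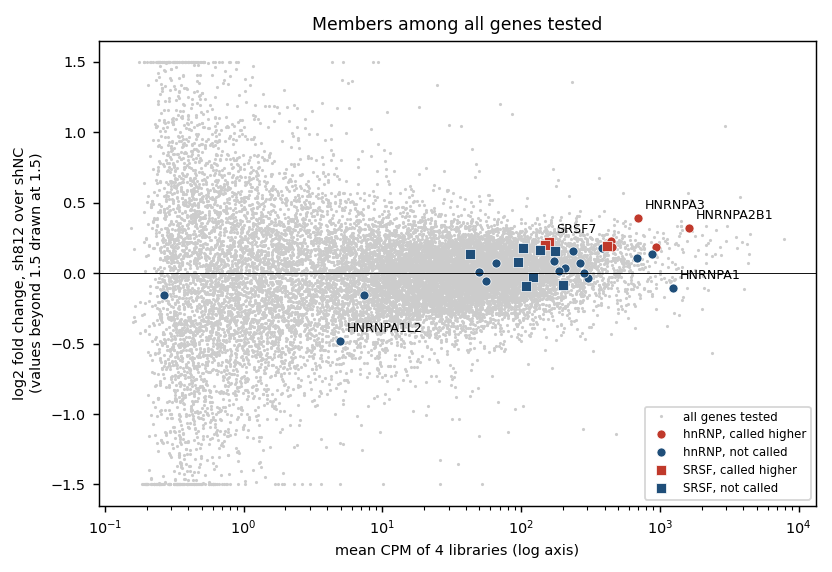
Log2 fold change (y axis, sh812 over shNC, drawn at 1.5 where larger) against the mean CPM of the 4 libraries (x axis, log scale) for all genes tested in grey, with hnRNP genes as circles and SRSF genes as squares, red where called higher. The 9 called members lie between 148 and 1615 CPM and between 0.18 and 0.39 on the log2 scale.

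Most of the calls, but not that of HNRNPA3, depended on having both sh812 libraries and on the scaling. Without sh812 replicate 1, HNRNPA3 alone was called (1 member, against 1.46% of all genes called higher), and without sh812 replicate 2, HNRNPA3 and HNRNPA2B1 were (2 members, against 1.55%). These fits have 1 sh812 library, which is assumed to vary as the shNC libraries do. Without shNC replicate 1 the fit called 13 members higher and 1 lower (5.24% and 5.16% of all genes), and without shNC replicate 2 it called 14 higher and 2 lower (9.5% and 8.64%). When scaled by library size alone, HNRNPA3, HNRNPA2B1 and HNRNPF were called higher and HNRNPA1 lower (3.34% and 7.9% of all genes), and the calls of the 6 other genes ended. The members called lower numbered 0 without either sh812 library, against 1.82% of all genes without replicate 1 and 2.26% without replicate 2.

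Other settings moved the count less. The same 9 members were called, and 0 lower, with RLE factors (5.43% higher and 5.16% lower of all genes), upper quartile factors (5.49% and 5.45%) and the replicate number as a block (5.97% and 5.94%). HNRNPAB joined them with no low-count filter (3.2% and 3.29%), with a mean CPM of at least 1 (7.14% and 7.85%) and with limma-voom (5.81% and 5.54%), and HNRNPAB and HNRNPC with DESeq2 (6.04% and 4.92%).

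**Figure D3:**
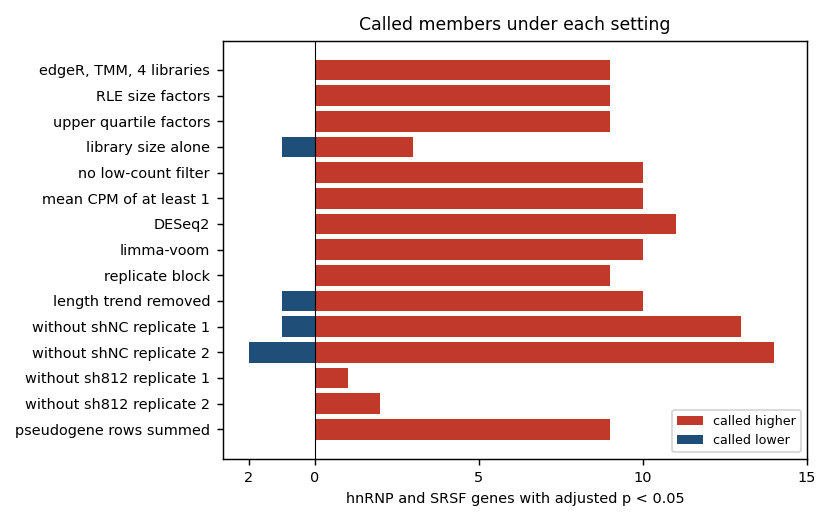
Number of hnRNP and SRSF genes called higher (red, right of 0) and lower (blue, left of 0) at an adjusted p under 0.05 under each setting (rows). The count called higher was 9 with all 4 libraries and TMM, 3 with library size alone, 1 and 2 without an sh812 library, and 13 and 14 without an shNC library.

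The A and B type hnRNPs bind pre-messenger RNA through paired recognition motifs and often repress exons. HNRNPA3 (ENSG00000170144, chromosome 2 from 177212563 to 177223958, plus strand) had 614 and 587 CPM in shNC and 807 and 768 CPM in sh812. Both sh812 libraries were well above both shNC libraries. The means were 600.4 ± 19.4 and 787 ± 27.7 CPM (SD, n = 2), and the fitted log2 change was 0.39 (SE 0.06, edgeR adjusted p = 5.46e-05). It was called in each of the 14 alternatives, where its log2 fold change ran from 0.35 to 0.47. HNRNPA2B1 (ENSG00000122566, chromosome 7 from 26173057 to 26201529, minus strand) had 1505 and 1370.4 CPM in shNC and 1857 and 1728 CPM in sh812. The lower sh812 library stood above the higher shNC library, and the log2 fold change was 0.32 (SE 0.06, edgeR adjusted p = 0.000814). Without sh812 replicate 1 its adjusted p in edgeR was 0.0818.

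HNRNPA1 (ENSG00000135486), a frequent antagonist of SRSF1 in splice site choice, had 1265 and 1306 CPM in shNC and 1225 and 1162 CPM in sh812. Both sh812 values lay below both shNC values, and the log2 fold change of -0.11 (95% interval -0.22 to 0.01, edgeR adjusted p = 0.234) was not called. It passed the threshold with library size alone (-0.15, edgeR adjusted p = 0.0474) and without shNC replicate 1 (-0.13, edgeR adjusted p = 0.0122). HNRNPA1L2 had 224 and 175 counts in shNC and 149 and 142 counts in sh812, or 5.91, 5.53, 4.24 and 3.97 CPM. The fitted difference was -0.48 on the log2 scale (SE 0.18, edgeR adjusted p = 0.0943), and it was called lower only with each library's trend on transcript length removed (-0.57, edgeR adjusted p = 0.0469; 4.48% of all genes called lower there). HNRNPA1P48, which the table types as protein-coding despite its pseudogene symbol, had 8.07 and 7.40 CPM in shNC and 6.95 and 6.99 CPM in sh812, with a log2 fold change of -0.15 (95% interval -0.47 to 0.16).

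HNRNPAB, a single-stranded nucleic acid binder close to HNRNPD, had 361 and 359 CPM in shNC and 428 and 388 CPM in sh812. With 0.18 on the log2 scale (SE 0.06) its edgeR adjusted p was 0.0531, just outside the threshold, and it was called in 6 of the 14 alternatives, DESeq2 and limma-voom among them. HNRNPA0 had 156 and 177 CPM in shNC and 179 and 174 CPM in sh812. The higher shNC value lay between the sh812 values, and its log2 fold change was 0.08 (95% interval -0.05 to 0.22).

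HNRNPD (AUF1), which binds AU-rich elements and acts in messenger RNA decay, had 393 and 397 CPM in shNC and 475 and 435 CPM in sh812. The groups did not overlap, with a log2 fold change of 0.20 (SE 0.06, edgeR adjusted p = 0.0252). Its paralog HNRNPDL lies close to it on chromosome 4 and had 215, 195, 219 and 202 CPM in shNC replicates 1 and 2 and sh812 replicates 1 and 2. There the groups overlapped, and the log2 difference was 0.04 (95% interval -0.09 to 0.17), turning to -0.0095 with library size alone.

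HNRNPF and the H genes encode proteins that bind G-rich stretches. HNRNPF had 398 and 425 CPM in shNC and 487 and 475 CPM in sh812, a log2 fold change of 0.23 (SE 0.06, edgeR adjusted p = 0.0121). HNRNPH3 had 233, 216, 257 and 243 CPM in the same order of libraries, with a log2 fold change of 0.16 (SE 0.06, edgeR adjusted p = 0.0985). HNRNPH1 had 325, 291, 307 and 295 CPM, so that both sh812 libraries lay between the shNC libraries, and HNRNPH2 had 56.3, 57.0, 52.9 and 56.1 CPM. Their log2 fold changes were -0.03 (95% interval -0.16 to 0.09) and -0.05 (95% interval -0.21 to 0.10). Among the F and H genes only HNRNPF was called, and the difference between the paralogs was not tested.

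HNRNPU (SAF-A), a chromatin-associated scaffold protein, had 895 and 866 CPM in shNC and 1031 and 970.3 CPM in sh812, with a log2 fold change of 0.18 (SE 0.06, edgeR adjusted p = 0.0339). Its relatives HNRNPUL1 and HNRNPUL2 had log2 fold changes of 0.07 (95% interval -0.05 to 0.19) and 0.07 (95% interval -0.08 to 0.22). HNRNPM, a splicing regulator active in epithelial and mesenchymal cell states, had 420.0 and 430.0 CPM in shNC and 498 and 469 CPM in sh812, with a log2 fold change of 0.19 (SE 0.06, edgeR adjusted p = 0.0359). In both genes sh812 replicate 1 was the higher of the pair.

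HNRNPC, which packages nascent RNA and binds uridine tracts, had 825 and 852 CPM in shNC and 943 and 902 CPM in sh812. The fitted log2 change was 0.14 (95% interval 0.02 to 0.25, edgeR adjusted p = 0.114). It was called with DESeq2 (6.04% of all genes called higher), with the length trend removed and without shNC replicate 2. The poly(C) binder HNRNPK had 659, 671, 723 and 707 CPM, with groups that did not overlap and a log2 fold change of 0.10 (95% interval -0.01 to 0.22). HNRNPR, HNRNPL and HNRNPLL had log2 fold changes of 0.0026, 0.016 and 0.0060, each with groups that overlapped, and with library size alone they turned to -0.042, -0.028 and -0.039. Their 95% intervals ran from -0.12 to 0.12, from -0.11 to 0.14 and from -0.15 to 0.17. HNRNPCL1, an HNRNPC-like gene, had 14 and 6 counts in shNC and 10 and 8 counts in sh812, too few to show a difference of the size seen in the other members (95% interval -1.68 to 1.37).

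**Figure D4:**
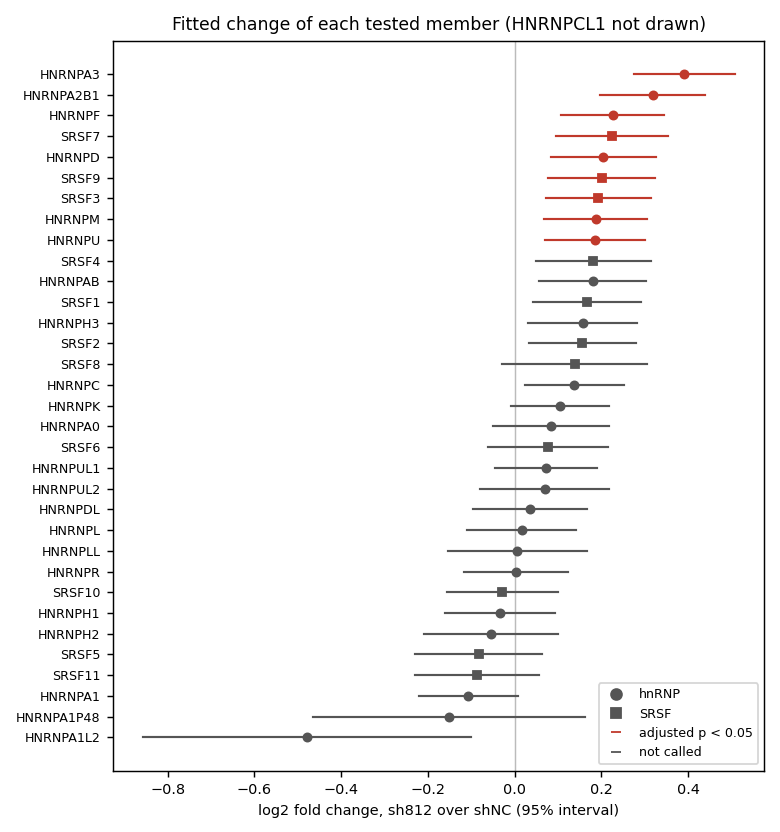
Fitted log2 fold change of each tested member except HNRNPCL1 (points, circles for hnRNP and squares for SRSF genes) with its 95% interval from edgeR (lines), red where the adjusted p is under 0.05. The intervals of the 9 called genes lie above 0, as do those of 6 genes that were not called after adjustment, and that of HNRNPA1L2 lies below 0.

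Among SR genes, SRSF7, which takes part in splicing, polyadenylation site choice and export, had 141 and 151 CPM in shNC and 176 and 165 CPM in sh812. The groups did not overlap, and the log2 fold change was 0.22 (SE 0.06, edgeR adjusted p = 0.0220). SRSF3, which also acts in export, had 374 and 409 CPM in shNC and 449 and 445 CPM in sh812. The log2 change of 0.19 (SE 0.06, edgeR adjusted p = 0.0351) was smaller without shNC replicate 1, at 0.13 (edgeR adjusted p = 0.0567, not called). SRSF9 had 138 and 137 CPM in shNC and 159.8 and 156 CPM in sh812, with replicates close together and a log2 fold change of 0.20 (SE 0.06, edgeR adjusted p = 0.0319). With the length trend removed it was 0.10 (edgeR adjusted p = 0.277), the largest effect of that correction on a called member. SRSF9 has the shortest transcript of the SRSF genes, 1201 bases.

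SRSF4, SRSF1 and SRSF2 came next and missed the threshold. SRSF1, which binds purine-rich enhancers and is known as a proto-oncogene, had 130.2 and 128 CPM in shNC and 144.7 and 145.1 CPM in sh812, with a log2 fold change of 0.17 (SE 0.06, edgeR adjusted p = 0.0786). SRSF4 had 98.9 and 94.5 CPM in shNC and 110.3 and 109 CPM in sh812, with a log2 fold change of 0.18 (SE 0.06, edgeR adjusted p = 0.0709). SRSF2 had 168 and 161 CPM in shNC and 187 and 180.5 CPM in sh812, with a log2 fold change of 0.16 (SE 0.06, edgeR adjusted p = 0.0965). In these 3 genes the groups did not overlap and the 95% intervals lay above 0. SRSF8, a paralog of SRSF2, had 39.995 and 41.7 CPM in shNC and 46.2 and 43.7 CPM in sh812, a log2 fold change of 0.14 with an interval from -0.03 to 0.31.

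SRSF5, SRSF11 and SRSF10 had values below 0, and none was called. SRSF5 had 228 and 188 CPM in shNC and 199 and 194 CPM in sh812, so that the sh812 pair lay inside the shNC pair. Its log2 fold change of -0.08 (95% interval -0.23 to 0.06) turned to 0.064 when shNC replicate 1 was left out and went to -0.21 when shNC replicate 2 was, where it was called lower (edgeR adjusted p = 0.00138). SRSF11 had 119 and 104 CPM in shNC and 106 and 103 CPM in sh812. Its log2 fold change of -0.09 (95% interval -0.23 to 0.06) was 0.013 and -0.17 under the same removals, the latter called lower (edgeR adjusted p = 0.0377). SRSF10, a splicing repressor when dephosphorylated, had 123 and 122 CPM in shNC and 121 and 119 CPM in sh812, with a log2 fold change of -0.03 (95% interval -0.16 to 0.10). SRSF6 had 94.491 and 89.4 CPM in shNC and 94.493 and 99.5 CPM in sh812, so that the groups all but touched. By this small margin it is counted above among the 20 members with both sh812 libraries above both shNC libraries. Its log2 fold change was 0.08 (95% interval -0.06 to 0.21).

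The replicate differences of the 9 called members were at most 0.14 on the log2 scale, below the smallest of their changes (0.18), whereas those of some other members were larger than their change. The test that made the calls weighs the change against the spread between replicates, so this contrast is no separate support for them. The absolute log2 difference between replicates had a median over the 34 members of 0.064 in shNC and 0.068 in sh812. In shNC it was largest for HNRNPCL1 (0.79), SRSF5 (0.28), SRSF11 (0.19) and HNRNPA0 (0.19). In sh812, replicate 2 was below replicate 1 in 29 of the 34 members, with a median difference of -0.053, whereas the median over all genes tested was -0.0040. The part of this difference in the calls was not tested beyond the removal of each library.

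Compared per kilobase of the longest coding transcript, hnRNP levels ranged more widely than SRSF levels. HNRNPA2B1 and HNRNPA1 were the most abundant, at 392.4 ± 26.0 and 312 ± 7.02 CPM per kilobase in shNC (SD, n = 2). In sh812 they were at 489 ± 24.9 and 289.6 ± 10.9 CPM per kilobase. HNRNPCL1 and HNRNPA1L2 were lowest among the tested hnRNP genes, at 0.252 ± 0.114 and 4.17 ± 0.192 CPM per kilobase in shNC. Among SRSF genes, SRSF9 and SRSF3 were highest, at 114.6 ± 0.359 and 92.7 ± 5.82 CPM per kilobase in shNC and 132 ± 1.94 and 106 ± 0.712 in sh812. SRSF8 and SRSF6 were lowest, at 10.1 ± 0.306 and 21.3 ± 0.828 in shNC. The order depends on the length used: over the union of all annotated exons HNRNPA1 had rank 1 and HNRNPA2B1 rank 3 among hnRNP genes, and SRSF3 rank 1 and SRSF9 rank 4 among SRSF genes. The Spearman correlation of the 2 scales over the 34 members was 0.93.

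The relation of change to transcript length is given as a description. The Spearman correlation of the log2 fold change with transcript length was -0.34 over 12257 genes with a mean log2 CPM above 1, and 0.095 over the 34 members. The difference of shNC replicate 2 from replicate 1 had correlations of -0.33 and 0.19 with length over the same genes. With the length trend of each library removed, 10 members were called higher and 1 lower (5.81% and 4.48% of all genes), and 8 of the 9 calls were kept.

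Several members, by a distance rule chosen after the values were seen, start head to head with another gene. Within 1000 bases on the opposite strand, GENCODE 29 places the starts of 9 protein-coding genes beside those of tested members. DYNLL1, a dynein light chain whose start lies 57 bases from that of SRSF9, had 251 and 269 CPM in shNC and 308 and 286 CPM in sh812 and rose with a log2 fold change of 0.19 (SE 0.06, edgeR adjusted p = 0.0419), next to 0.20 for SRSF9. GEMIN6, a member of the SMN complex that assembles snRNPs, 40 bases from SRSF7, had 30.95 and 28.2 CPM in shNC and 34.6 and 36.9 CPM in sh812. It differed by 0.27 on the log2 scale (SE 0.09, edgeR adjusted p = 0.0541), next to 0.22 for SRSF7. CBX3, which overlaps the start of HNRNPA2B1, had a log2 fold change of 0.12 (95% interval -0.00075 to 0.23) next to 0.32 for HNRNPA2B1. CBX5, 60 bases from HNRNPA1, had -0.04 (95% interval -0.18 to 0.10) next to -0.11 for HNRNPA1. The other 5 (ENOPH1, GLA, RMI1, TTC9C and LRRC40, beside HNRNPDL, HNRNPH2, HNRNPK, HNRNPUL2 and SRSF11) were not called.

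Isoforms typed as targets of decay are annotated for all 12 SRSF genes. In GENCODE 29, 12 of 12 SRSF genes and 14 of 27 hnRNP genes have at least 1 transcript typed as nonsense-mediated decay, against 35.6% of 19951 protein-coding genes. A transcript typed as retained intron is annotated for 9 SRSF and 14 hnRNP genes, against 46.2% of protein-coding genes. The median number of annotated transcripts was 9 for the members and 6 for all protein-coding genes. Of the 24 tested members with an NMD transcript 7 were called higher, and of the 10 without one 2 were. Over all genes tested, 5.43% were called higher. The 10 include the least abundant tested members, HNRNPA1L2, HNRNPA1P48 and HNRNPCL1, none of which was called higher. The sets were thus not compared at equal abundance, and a difference between them was not tested. The deposited counts do not separate isoforms typed as nonsense-mediated decay or retained intron from the coding ones.

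Near-identical copies could take reads from some members. HNRNPA1 has 74 pseudogene rows of its own symbol in the table, of which 34 had a count, and HNRNPA3 has 16. Pseudogene rows held 0.908% to 1.00% of the combined counts of HNRNPA1 and these rows, 1.16% to 1.41% for HNRNPA3 and 0.891% to 1.23% for HNRNPC. HNRNPA1P48 (234 to 306 counts per library) and HNRNPA1L2 (142 to 224) are typed as protein-coding and were not among these rows. Whether they hold reads of HNRNPA1 was not tested. With each member's pseudogene rows added to its own, the same 9 members were called higher and 0 lower (5.46% and 5.41% of all genes). Of the 34 tested members, 21 overlap another annotated gene, 15 of them one on the opposite strand. NFE2L3 and CBX3 overlap HNRNPA2B1, COX20 overlaps HNRNPU, and GATC overlaps SRSF9, each on the opposite strand. The libraries keep strand by a dUTP step, per the labels' protocols, but whether counting used strand is not given in the sources used here, so reads from such pairs may not be separated.

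Related lists of splicing genes were counted in the same fit, where 5.43% of all genes were called higher and 5.42% lower, or 11.9% and 8.4% of genes with a mean of at least 40 CPM. Of the tested genes of each list, 38 of 40 core spliceosome genes, 11 of 15 hnRNP proteins with other names, 17 of 20 SR-related proteins, 7 of 12 kinases and import receptors and 8 of 19 other regulators were at that level. Core spliceosome genes, covering Sm and snRNP proteins, had 12 of 40 called higher and 0 lower, with a median log2 fold change of 0.13. At an unadjusted p under 0.05, 21 were higher and 0 lower, against 22.6% and 16.3% of genes with a mean of at least 40 CPM. SNRPD2, a subunit of the Sm ring, had 134 and 146 CPM in shNC and 183 and 172 CPM in sh812 (log2 fold change 0.34, SE 0.06, edgeR adjusted p = 0.000876). PRPF31, SNRPA and SNRPG, of the U4/U6, U1 and Sm groups, were higher by 0.29, 0.30 and 0.30 on the log2 scale (edgeR adjusted p = 0.00612, 0.00671 and 0.00692). Of these genes 7 were called higher with library size alone, where 3.34% of all genes were. The number fell without either sh812 library, as did the share of all genes called higher.

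Of 15 tested hnRNP proteins with other names, 2 were called higher and 0 lower, with a median of 0.094. They were the poly(C) binder PCBP2 (0.28, edgeR adjusted p = 0.00460) and PTBP3 (0.29, edgeR adjusted p = 0.00573), a paralog of the polypyrimidine tract binder PTBP1. Without sh812 replicate 1 neither was called. With the length trend removed 5 were called higher, where 5.81% of all genes were. The number also rose without shNC replicate 2, as did the share of all genes called higher. Of 20 SR-related and RS-domain proteins, 4 were called higher and 0 lower, with a median of 0.040. These were ACIN1, SNRNP70, PNN and CHERP, with log2 fold changes from 0.22 to 0.23 and edgeR adjusted p = 0.0226, 0.0228, 0.0333 and 0.0482. The count of this list was 0 with library size alone, where 3.34% of all genes were called higher. It fell without either sh812 library, as did the share of all genes. Without shNC replicate 1 it rose, where the share of all genes did not.

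Kinases phosphorylate the arginine-serine domains of SR proteins, and transportins carry the proteins into the nucleus. Of 12 SR protein kinases and import receptors, 0 were called in either direction by edgeR, with a median of -0.032, and 2 were higher and 0 lower at an unadjusted p under 0.05, where 11.9% of all genes were higher. The 2 were the kinase SRPK2 (0.23, 95% interval 0.068 to 0.39) and the import receptor TNPO3 (0.14, 95% interval 0.016 to 0.26), named after their values were seen. The count was 0 with DESeq2 and limma-voom too, where 6.04% and 5.81% of all genes were called higher. The replicate block called 1 higher (5.97% of all genes) and the length correction 2 (5.81%). It also rose without shNC replicate 1. Of 27 other splicing regulators, a list that mixes genes known for tissue-specific splicing with widely expressed ones such as TIA1, 19 were tested, and 2 were called higher and 2 lower, with a median of -0.057. QKI, an RNA binder linked to mesenchymal splicing, had 215 and 204 CPM in shNC and 152 and 149 CPM in sh812 and fell (log2 fold change -0.47, SE 0.06, edgeR adjusted p = 9.19e-06). TIA1, a U-rich enhancer binder, also fell (-0.23, edgeR adjusted p = 0.0310). MBNL3, a muscleblind family member, rose from 2.64 and 3.19 CPM to 5.53 and 5.73 CPM (0.95, edgeR adjusted p = 0.00305), and ESRP2, an epithelial splicing regulator, rose (0.31, edgeR adjusted p = 0.0298). Over the alternatives this list had 1 to 3 genes called higher and 1 to 4 called lower.

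**Figure D5:**
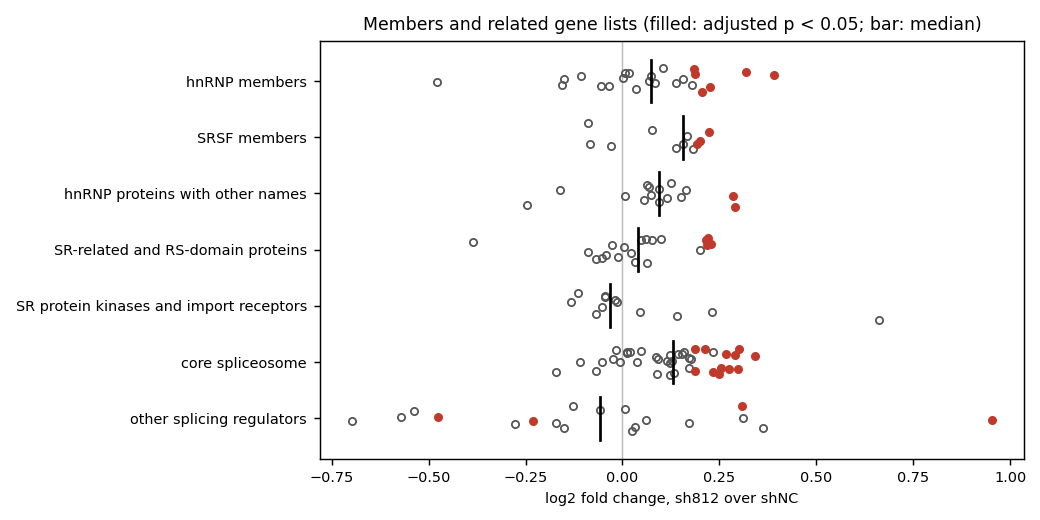
Log2 fold change (x axis, sh812 over shNC) of the genes of each family and related list (rows), with filled red points for an adjusted p under 0.05 in edgeR and a bar at the median. Red points lie to the right of 0 for the hnRNP, SRSF and core spliceosome rows, and on both sides of it for the other splicing regulators.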

How the data were processed

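The authors deposited 1 table of raw counts per gene for 4 PC3 libraries (2 shNC, 2 sh812; groups from the sample titles). Per the submitters' processing notes, fastp, STAR 2.7.1a, featureCounts, DESeq2 and the build hg38 were named. Their settings and the annotation release are not given in the sources used here. Total counts were 31450648 to 37041330, and intervals cover these libraries only. Replicate pairs differed beyond sampling noise (mean chi-square per gene 8.43 in shNC and 4.51 in sh812), so each counted as 1 replicate.

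The test used edgeR 4.0.16 under R 4.3.3 (filterByExpr, TMM, glmQLFit and glmQLFTest on all 4 libraries, no covariate), with Benjamini-Hochberg adjustment over 16802 genes and a threshold of 0.05. The SE came from the F statistic. Alternatives, 14 in all, used RLE, upper quartile or no factors, other filters, DESeq2 1.42.0, limma-voom (limma 3.58.1), the replicate number as a block, a lowess length correction (span 0.3), summed pseudogene rows and the removal of each library. On simulated counts of this comparison (16434 genes), the test called 28.4% of genes set to a log2 change of 0.3 and 41.8% of genes at 0.5. Only 200 genes were changed there, drawn from all levels, so these shares do not give the power for the mostly abundant members. Gene positions, transcript types and lengths come from GENCODE 29 (GRCh38), and promoters from RefSeq (GRCh38.p14). The members and lists were chosen with earlier results of these data known. By rule, the called members, the next 3 in each direction, the 2 highest and 2 lowest levels per family, and up to 4 called genes per related list were named; the other members were added so that each is accounted for. Protein sequences were not analysed here.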

Additional observations from a re-analysis of the deposited data

How the results depend on the processing

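With library size alone, 3 members were called higher and 1 lower (against 9 and 0), and the median log2 fold change was 0.050 for the members, 0.028 for hnRNP and 0.11 for SRSF genes. This scaling moved the median of all genes to -0.050, and HNRNPDL (-0.0095), HNRNPL (-0.028), HNRNPLL (-0.039) and HNRNPR (-0.042) changed sign. With the length trend removed, 1 member was called lower, the medians were 0.13 for the members and 0.10 for hnRNP genes, and HNRNPL was -0.0053. With a mean CPM of at least 1, HNRNPR was -0.0030. The cause was not tested.

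Leaving out 1 library gave 1 to 14 members called higher and 0 to 2 called lower, and medians of 0.094 to 0.12 (members), 0.067 to 0.10 (hnRNP) and 0.13 to 0.18 (SRSF). Without shNC replicate 1, HNRNPA0 (-0.0060), HNRNPCL1 (0.41), HNRNPH1 (0.049), HNRNPL (-0.036), HNRNPLL (-0.013), SRSF11 (0.013) and SRSF5 (0.064) changed sign. Without shNC replicate 2, HNRNPDL (-0.024) and HNRNPR (-0.022) did. Without sh812 replicate 1, HNRNPDL (-0.022), HNRNPL (-0.0052), HNRNPLL (-0.038) and HNRNPR (-0.016) did, and without sh812 replicate 2, HNRNPCL1 (0.012) did. The values without the other shNC library were -0.53 (HNRNPCL1), -0.11 (HNRNPH1), 0.075 (HNRNPL), -0.17 (SRSF11) and -0.21 (SRSF5) without shNC replicate 2, and 0.033 (HNRNPR) without shNC replicate 1. METTL3 ran from -2.52 to -2.33 and was called in all 14 alternatives. Of 474 values of members under alternatives, 409 kept direction and side of the threshold, 23 lost the call, 22 gained one and 20 changed sign.

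In the related lists, the number called higher when 1 library was left out was 0 to 4 (2 with all) for hnRNP proteins with other names, 0 to 8 (4) for SR-related, 0 to 1 (0) for kinases and receptors, 0 to 17 (12) for core and 1 to 3 (2) for the other regulators, and the number called lower was 0, 0 to 2, 0 to 1, 0 to 1 and 1 to 4. Library size alone gave 0 SR-related, 7 core and 1 other regulator higher. The length correction gave 5 hnRNP proteins with other names and 2 kinases or receptors higher and 1 other regulator lower, DESeq2 also gave 1 other regulator lower, and the block gave 1 kinase or receptor higher.

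Both groups have libraries numbered 1 and 2, and no label ties a number to a day, batch or culture. The deviations from the group means correlated between same-numbered libraries at r = 0.016 over 16802 genes and 0.49 over the 34 members. Of these members, HNRNPCL1, with 6 to 14 counts per library, had the largest replicate difference in both groups. Replicate 2 minus replicate 1 was -0.79 in shNC and -0.29 in sh812 on the log2 scale. The r of the members without HNRNPCL1 was not tested, and with 2 pairs the numbers were not taken as pairing. With the replicate block, 9 members were called higher and 0 lower, the same 9, with medians of 0.096, 0.072 and 0.16, and METTL3 was -2.42. At this depth the spread between 2 libraries, not the count, limits most members. HNRNPCL1, with 6 to 14 counts per library, is an exception. Counts were also low for HNRNPA1L2 (142 to 224, SE 0.18) and HNRNPA1P48 (234 to 306, SE 0.15), so the count may limit them too.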
